A study of Mus musculus with 4 samples.

Results

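Integrin and laminin subunits were followed in sorted mouse mammary tumor cells from libraries titled Lsd1 wild-type and Lsd1 knockout. Rows of the deposited expression table were taken whose symbol is that of an integrin alpha or beta chain or of a laminin alpha, beta or gamma chain. Itgam and Itgax and the integrin-binding and integrin-like proteins were left aside. Described here are 35 of these genes, 25 integrin chains and 10 laminin chains, of 23951 rows. Of the integrin chains 7 were grouped as leukocyte integrins and 18 as other integrins.

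All libraries came from female MMTV-PyMT mice, in which a viral oncoprotein under a mammary promoter drives mammary tumors. The mice carried the Rosa26-Stop-YFP (R26Y) reporter, and YFP+ cells were sorted 2 to 3 months after intraductal Ad-K8-Cre, an adenovirus that expresses Cre under the Krt8 promoter of luminal cells. Wild-type mice had Lsd1+/+ alleles (2 libraries) and knockout mice the conditional Lsd1L/L alleles (2 libraries). For the samples titled knockout the tissue label gives Lsd1+/+ as well, so these are called the knockout-labelled libraries. Kdm1a, the gene of LSD1, was at 52.5 and 22.9 FPKM (wild-type) against 20.2 and 22.8 FPKM (knockout-labelled), a difference in log2(FPKM + 1) of -0.67 (SE 0.46; limma, adjusted p = 0.34). The second wild-type library lay at the level of the knockout-labelled pair. Compared with it alone the pair differed by -0.09, and compared with the first wild-type library alone by -1.25. Each comparison rests on a single wild-type library, so no p-value is given for it. Kdm1a thus does not bear out the labels in all 4 libraries, and each direction below is one between labels.

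Integrins are receptors made of an alpha and a beta chain that tie cells to the matrix or to other cells, and laminins are trimers of an alpha, a beta and a gamma chain that build the basement membrane. In the mammary gland the epithelium rests on laminin through the pairs of Itga3 with Itgb1 and of Itga6 with Itgb1 or Itgb4, the last of which anchors hemidesmosomes. Leukocytes use other chains, among them Itgal with Itgb2, and Itga4 or Itgae with Itgb7, to adhere to endothelium, to other leukocytes and to epithelium.

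The cell types in each library were read from marker lists, because the sort was meant to yield tumor cells. The 9 luminal epithelial markers summed to 12221 and 2722 FPKM (wild-type) against 724 and 748 FPKM (knockout-labelled). The 10 lymphocyte markers summed to 14.8 and 61.9 FPKM (wild-type) against 1802 and 1701 FPKM (knockout-labelled). The 8 macrophage markers summed to 5637 FPKM in the second wild-type library and to between 361 and 644 FPKM in the other 3. The 8 endothelial markers likewise summed to 278 FPKM there and to between 24.8 and 37.6 FPKM elsewhere. The knockout-labelled libraries were thus higher in lymphocyte transcripts and lower in luminal ones. The wild-type pair itself differed in luminal, macrophage and endothelial transcripts. No luminal, lymphocyte, macrophage or endothelial marker was listed at 0 in any library. In such bulk samples fewer cells of a type and less RNA per cell cannot be told apart. FPKM totals ranged from 401786 to 449838, and the spacing of the lowest values gave the 4 libraries 0.85 to 1.03 times the depth of the second knockout-labelled library.

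**Figure D1:**
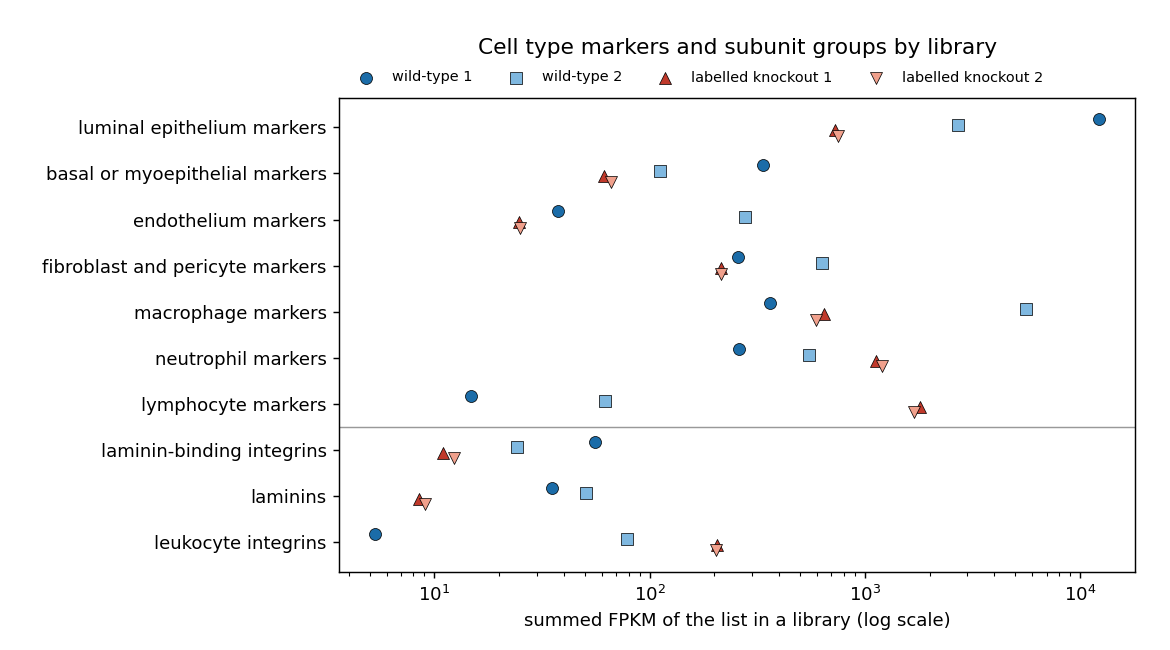
Summed FPKM of each marker list (upper rows) and of 3 groups of subunits (lower rows) in each library, on a log axis; each point is 1 library. The leukocyte integrins stand lowest in the first wild-type library at 5.33 FPKM and highest in the knockout-labelled libraries at 207 and 204 FPKM. The lymphocyte and the neutrophil marker sums are likewise lowest and highest there. The laminins lie at 35.3 and 50.6 FPKM (wild-type) against 8.53 and 9.06 FPKM (knockout-labelled).

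Of the 35 subunits, 20 reached 1 FPKM in at least 2 libraries and were tested. Of these, 2 rose and 3 fell in the knockout-labelled libraries (limma on log2(FPKM + 1), Benjamini-Hochberg adjusted p under 0.05 over 11138 rows). The leukocyte chains Itgb7 and Itgae rose, and the laminin chains Lamb2, Lama4 and Lama5 fell. Over all rows tested 16.5% were called, 9.51% as higher and 6.99% as lower. Members passed the filter partly through the group in which they were high, so the counts describe the tested rows and not the families.

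The sequence before the transcription start is shown for Itgb7, Lamb2 and Lama5, the called subunits with an entry in the RefSeq promoter table (build GRCm38.p6), so that the genes that moved can be set beside their promoters. Each line gives 250 bases that end at the start, on the gene's own strand. Capitals mark matches on either strand to AGGAAG (an ETS-type core), CAGGTG (an E-box of the kind SNAI and ZEB factors bind) and GGGCGG (a GC box); TGTGGT (a RUNX core) and TGANTCA (AP-1) were searched too.
Itgb7: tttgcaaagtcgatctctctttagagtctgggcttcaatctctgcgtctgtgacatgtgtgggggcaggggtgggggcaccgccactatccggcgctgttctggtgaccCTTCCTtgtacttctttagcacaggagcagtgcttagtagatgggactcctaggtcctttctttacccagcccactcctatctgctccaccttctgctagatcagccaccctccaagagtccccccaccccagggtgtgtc
Lamb2: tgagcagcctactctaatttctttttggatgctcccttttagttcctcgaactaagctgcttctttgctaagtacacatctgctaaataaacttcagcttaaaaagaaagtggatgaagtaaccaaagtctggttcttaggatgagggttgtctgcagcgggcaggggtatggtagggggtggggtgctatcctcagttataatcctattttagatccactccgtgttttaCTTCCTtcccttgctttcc
Lama5: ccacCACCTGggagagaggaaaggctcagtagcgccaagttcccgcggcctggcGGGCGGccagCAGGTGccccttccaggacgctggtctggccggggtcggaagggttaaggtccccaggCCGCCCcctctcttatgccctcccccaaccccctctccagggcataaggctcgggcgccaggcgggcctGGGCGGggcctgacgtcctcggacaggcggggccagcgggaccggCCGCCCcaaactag
The Itgb7 window (chr15:102231936-102232185, minus strand) holds 1 AGGAAG match, which opens 141 bases before the start. The Lamb2 window (chr9:108479612-108479861, plus strand) also holds 1 AGGAAG match, 19 bases before the start. The Lama5 window (chr2:180225860-180226109, minus strand) holds none of these but 4 GGGCGG and 2 CAGGTG matches, and 72.4% of its bases are G or C, against a median of 52.4% over all windows. AGGAAG occurs in 29.5% of the 32851 windows of this length in the table, CAGGTG in 17.2%, GGGCGG in 32.7%, TGTGGT in 14% and TGANTCA in 6.75%. Windows were at hand for 22 of the 35 subunits, and AGGAAG was found in at least 1 window of 12 of them, CAGGTG of 8, GGGCGG of 7, TGTGGT of 2 (Itga3 and Itga4) and TGANTCA of 0. A match describes letters and not a bound site.

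**Figure D2:**
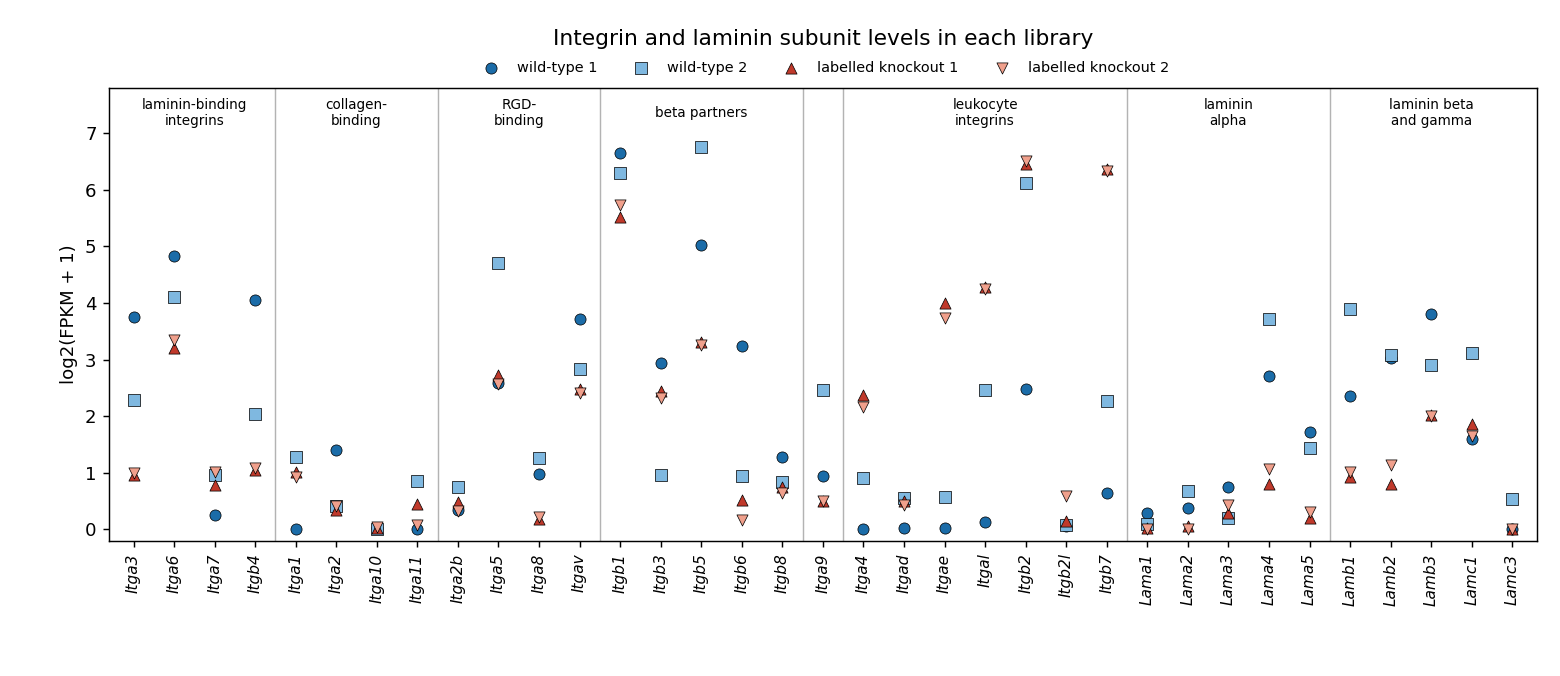
Level of each of the 35 subunits in each library as log2(FPKM + 1), grouped by role; each point is 1 library and Itga9 stands in the unlabelled column. The leukocyte chains Itgae, Itgal and Itgb7 have both knockout-labelled libraries far above both wild-type libraries, whereas most laminin-binding integrins and laminins have them below.

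Among leukocyte integrins, Itgb7, the beta chain shared by the gut-homing and the epithelium-binding integrins of lymphocytes, had the largest difference of all tested subunits. It was at 0.566 and 3.82 FPKM (wild-type) against 81.3 and 79.5 FPKM (knockout-labelled). Both wild-type libraries were low and the groups did not overlap, with a ratio of group means of 36.6. On the log2(FPKM + 1) scale Itgb7 rose by 4.89 (SE 0.61, n = 2 and 2; limma, adjusted p = 0.030). Itgae, the alpha chain that binds E-cadherin together with Itgb7, went from 0.0209 and 0.490 FPKM to 15.0 and 12.3 FPKM. It too was low in both wild-type libraries, and it rose by 3.56 (SE 0.30; limma, adjusted p = 0.024), or by 5.68 with a pseudocount of 0.1.

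The other leukocyte chains were higher in the knockout-labelled libraries without passing. Itgal, the alpha chain of LFA-1, was at 0.0903 and 4.52 FPKM (wild-type) against 18.5 and 17.9 FPKM (knockout-labelled), a difference of 2.97 (SE 0.86; limma, adjusted p = 0.090). Its wild-type libraries differed by a factor of 50.1, so the spread within wild-type was wide although the groups did not overlap. Itga4, the alpha chain that pairs with Itgb1 or Itgb7 and binds VCAM-1, was listed at 0 and was at 0.876 FPKM in wild-type and stood at 4.16 and 3.49 FPKM in the knockout-labelled libraries. Its difference of 1.81 (SE 0.38) just missed the threshold (limma, adjusted p = 0.053), and it passed when libraries were rescaled to a common total or quantile normalized.

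Itgb2, the beta chain common to the leukocyte integrins LFA-1 and Mac-1, did not separate the groups in the way Itgb7 did. It was at 4.58 FPKM in the first wild-type library, at 68.5 FPKM in the second and at 87.1 and 89.7 FPKM in the knockout-labelled libraries (difference 2.18, SE 1.32; limma, adjusted p = 0.29). The second wild-type library thus lay near the knockout-labelled libraries, and the difference was 0.36 when the first wild-type library was left out and 4.0 when the second was. Myeloid cells pair Itgb2 with Itgam and Itgax, which are no members here. Itgam was at 0.186 and 7.72 FPKM (wild-type) against 4.17 and 4.32 FPKM (knockout-labelled), and Itgax at 0.573 and 11.3 against 3.20 and 2.51 FPKM. Both were highest in the second wild-type library, where the macrophage markers summed highest; their part in the Itgb2 values was not tested. The ratio of Itgal to Itgb2 was 0.0197 and 0.0660 (wild-type) against 0.212 and 0.20 (knockout-labelled). Itgad, which also pairs with Itgb2, and Itgb2l, a close relative of Itgb2, stayed below 1 FPKM in all 4 libraries and were not tested.

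All 5 tested leukocyte chains were higher in the knockout-labelled libraries, and their groups did not overlap. Of all tested rows 39.3% lay apart in this direction. Of the 5 chains 2 passed. Itgae and Itga4 met the filter only through the knockout-labelled pair, so these could only come out higher. The median difference of the 5 was 2.97, against 0.08 over all tested rows. Leaving out the first wild-type library gave 1.8 and leaving out the second gave 4.0. Summed over the 7 chains the level was 5.33 and 78.7 FPKM in wild-type and 207 and 204 FPKM in the knockout-labelled libraries. The lymphocyte markers, 10 of 10 of which rose, and the neutrophil markers, 3 of 7 of which rose, were higher in the same libraries; their part in these differences was not tested.

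The integrin messages differed in make-up between libraries. Itgb1, the beta chain common to most matrix receptors, made up 59.1% and 29.6% of the summed beta chain FPKM in wild-type and 19.6% and 22.2% in the knockout-labelled libraries. Itgb7 made up 0.335% and 1.45% (wild-type) against 35.5% and 33.6% (knockout-labelled). The ratio of Itgb7 to Itgb1 therefore went from 0.00568 and 0.0491 to 1.82 and 1.52. Among alpha chains Itga6 ranked first in the first wild-type library with 45% and Itga5 in the second with 37.1%, while Itgal ranked first in both knockout-labelled libraries with 30.4% and 31.7%. The 4 leukocyte alpha chains together held 0.214% and 9.35% (wild-type) against 62.6% and 60.1% (knockout-labelled). The summed alpha chain level itself lay between 56.6 and 68.1 FPKM in all 4 libraries. These alpha chain sums and shares leave out Itgam and Itgax, which stood at 7.72 and 11.3 FPKM in the second wild-type library. With them the sum and the leukocyte share of that library would be larger. With 2 libraries per group an exact permutation test of such a share cannot go below p = 0.333, so no test is given.

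**Figure D3:**
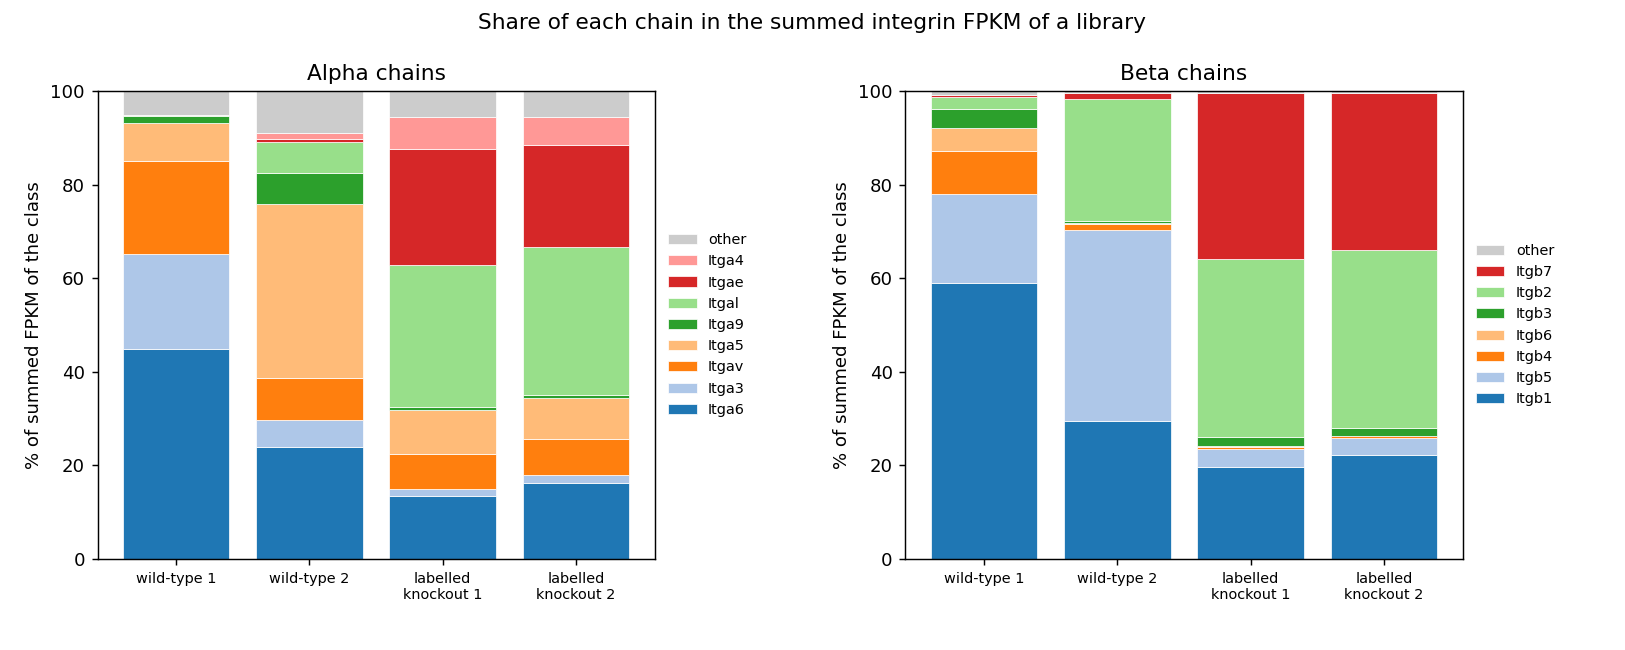
Stacked bars give the percentage that each chain holds of the summed FPKM of its class in a library. The classes are the 16 alpha chains described here, without Itgam and Itgax (left), and the 9 beta chains (right). Chains of small share are pooled as other. The first wild-type library is mostly Itga6, Itga3, Itgav and Itgb1, the second has Itga5 and Itgb5 as its largest shares, and both knockout-labelled libraries are mostly Itgal, Itgae, Itgb2 and Itgb7.

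The 3 tested laminin-binding chains were lower in the knockout-labelled libraries, and none passed. Of the 3, 2 had an unadjusted p under 0.05 (limma), as did 4395 of all 11138 tested rows. Itga6, the alpha chain of the hemidesmosome and a marker of basal and progenitor cells, was at 27.6 and 16.3 FPKM (wild-type) against 8.19 and 9.16 FPKM (knockout-labelled), a difference of -1.20 (SE 0.32; limma, adjusted p = 0.079). Itga3, the partner of Itgb1 in a laminin receptor, was at 12.4 and 3.88 FPKM against 0.943 and 1.0 FPKM (difference -2.04, SE 0.56; limma, adjusted p = 0.082). Itgb4, the hemidesmosomal beta chain, was at 15.6 and 3.13 FPKM against 1.08 and 1.12 FPKM (difference -1.98, SE 0.75; limma, adjusted p = 0.14). In each of the 3 the groups lay apart (32.1% of all tested rows did so in this direction), and the first wild-type library was the highest. Their median difference was -1.98, and -0.98 with the first wild-type library left out.

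Within a library the 3 chains did not keep their proportions. The ratio of Itgb4 to Itga6 was 0.565 in the first wild-type library, 0.192 in the second and 0.131 and 0.122 in the knockout-labelled libraries. The ratio of Itga3 to Itga6 followed the same order, at 0.451 and 0.238 (wild-type) against 0.115 and 0.109 (knockout-labelled). Itga6 thus held more of its level than Itga3 or Itgb4 where the luminal marker sum was lower. Itga7, a laminin-binding chain best known from muscle, was at 0.198 to 1.02 FPKM over the 4 libraries and was not tested.

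The remaining matrix receptors split by the wild-type library in which they were high. Itgb5, a vitronectin receptor chain that pairs with Itgav, was at 31.7 and 107 FPKM (wild-type) against 8.99 and 8.62 FPKM (knockout-labelled), a difference of -2.60 (SE 0.64; limma, adjusted p = 0.069). Itga5, the fibronectin receptor chain, was at 5.02 and 25.3 FPKM (wild-type) against 5.66 and 4.95 FPKM (knockout-labelled), a difference of -1.0 (SE 0.79; limma, adjusted p = 0.40). Only the second wild-type library was high in Itga5, and without it the difference was 0.07. Itgb6, the epithelial partner of Itgav that activates latent TGF-beta, was at 8.40 FPKM in wild-type library 1 and at 0.915, 0.437 and 0.127 FPKM in the others, so it missed the filter and was not tested.

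Itgb1 was at 99.7 and 77.9 FPKM (wild-type) against 44.8 and 52.4 FPKM (knockout-labelled), a difference of -0.85 (SE 0.22; limma, adjusted p = 0.073), and the groups lay further apart than the libraries of either pair. Itgav, the alpha chain of the RGD receptors, was at 12.1 and 6.15 FPKM against 4.56 and 4.30 FPKM (difference -0.83, SE 0.37; limma, adjusted p = 0.19). Without the first wild-type library its difference was -0.40, and without the second -1.27. Itgb3, the other classical partner of Itgav, which also pairs with Itga2b on platelets, ran differently. It was at 6.70 FPKM in the first wild-type library, at 0.940 FPKM in the second and at 4.42 and 4.03 FPKM in the knockout-labelled libraries (difference 0.43, SE 0.74; limma, adjusted p = 0.70). The low value was that of the second wild-type library, and without that library the difference was -0.56. Of the 5 platelet markers, 4 were below 1 FPKM in each library. The 5 nonetheless summed to 222 FPKM in the second wild-type library, against 2.78 to 7.01 FPKM elsewhere. The part of platelet transcripts in the Itgb3 values was not tested.

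Over the 18 integrin chains outside the leukocyte group, 9 were tested, 7 of them lower, with a median difference of -1.0. Of all 11138 tested rows 5171 were lower. None of the 9 chains passed after adjustment, and 4 had an unadjusted p under 0.05 (limma), as did 4395 of all tested rows. Of the 9 chains not tested, the collagen receptor chains Itga10 and Itga11 stayed below 1 FPKM in all libraries, and Itga2, which binds collagen in epithelium and platelets, was at 1.66 FPKM in wild-type library 1 and below that elsewhere. Itga9, a receptor chain for tenascin and other ligands in lymphatic endothelium and muscle, was at 0.927 and 4.49 FPKM (wild-type) against 0.424 and 0.416 FPKM (knockout-labelled). Itga8, Itgb8, Itga2b and Itga7 lay between 0.142 and 1.44 FPKM.

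The collagen receptor chain Itga1 showed how little read evidence can stand behind the lowest values. It was at 0.00653 FPKM in wild-type library 1 and at 1.44, 1.02 and 0.892 FPKM in the others. Corrected for relative depth, these stood at 1, 183, 141 and 133 times the lowest value, within 0.05 of whole numbers, so the first may be as little as a single read. Itga11 stood at 1, 85, 41 and 7 times its lowest value in the same way, and Itga10 at 1, 0, 1 and 2 times. Itga1 and Itga2 are direct neighbours on chromosome 13 in the RefSeq annotation, with 0 coding genes between them. Their highest levels were nonetheless in different wild-type libraries.

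**Figure D4:**
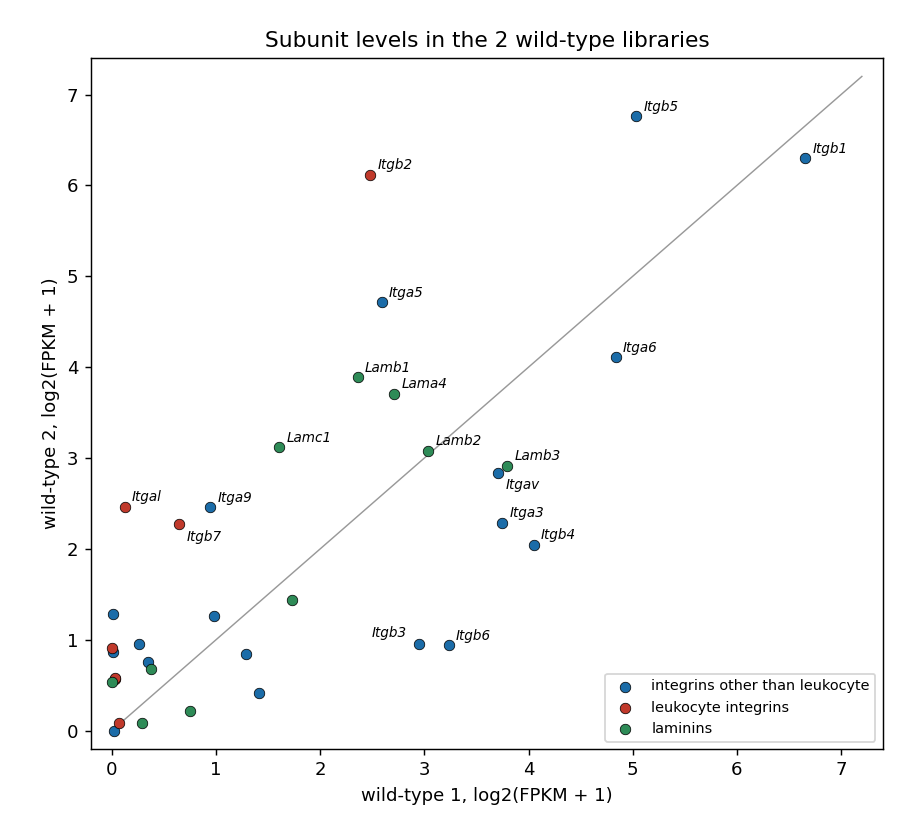
Level of each subunit in the first (x axis) and second (y axis) wild-type library as log2(FPKM + 1); each point is 1 gene, the line marks equal levels, and genes at 3 FPKM or more in either library are named. Itgb2, Itga5, Itgb5, Lamb1 and Lama4 lie above the line, Itga3, Itgb4, Itgb6 and Itgb3 below it, and Lamb2 lies on it.

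The wild-type pair was unlike in most of the subunits that were well expressed in any library. Of the 18 members at 5 FPKM or more in at least 1 library, 13 differed by more than 2-fold between the wild-type libraries, against 32.5% of all rows at that level. Of the 13, 4 were higher in the first (Itga3, Itgb3, Itgb4 and Itgb6) and 9 in the second (Itga5, Itgae, Itgal, Itgb2, Itgb5, Itgb7, Lama4, Lamb1 and Lamc1). Itgae, Itgal and Itgb7 reached 5 FPKM only in the knockout-labelled libraries. In wild-type Itgae stood at 0.0209 and 0.490 FPKM and Itgal at 0.0903 and 4.52 FPKM, so these ratios rest on low values. The knockout-labelled libraries agreed within 1.5-fold for 16 of the 18, against 94.5% of all rows at that level. The luminal and basal marker sums were higher in the first wild-type library and the macrophage, endothelial, fibroblast, neutrophil and lymphocyte sums in the second. The median neutrophil marker in log2(FPKM + 1) was higher in the first, at 1.88 against 1.11. The part of these cell types in the splits was not tested.

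Laminin chains were lower in the knockout-labelled libraries in all 6 tested cases, with a median difference of -1.71, and 3 of the 6 fell (6.99% of all tested rows fell). Lamb2, a laminin beta chain best known from vessels, muscle and kidney, was at 7.2 and 7.45 FPKM (wild-type) against 0.755 and 1.21 FPKM (knockout-labelled). It was the laminin chain on which the wild-type libraries agreed best, and it fell by 2.08 (SE 0.24; limma, adjusted p = 0.028). Lama5, the alpha chain of the laminins of most adult epithelial and vascular basement membranes, fell from 2.31 and 1.70 FPKM to 0.146 and 0.246 FPKM (difference -1.32, SE 0.19; limma, adjusted p = 0.033). Lama4, the alpha chain of vascular and other mesenchymal laminins, fell from 5.54 and 12.1 FPKM to 0.751 and 1.09 FPKM (difference -2.27, SE 0.42; limma, adjusted p = 0.045). In all 3 both knockout-labelled libraries lay below both wild-type libraries, as in 32.1% of all tested rows. The 3 were picked as called lower, and Lama5 met the filter only through the wild-type pair. A pseudocount of 0.1, which damps low values less, gave a laminin median of -2.82 and a Lama5 difference of -2.84.

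The other widely expressed laminin chains, Lamb1 and Lamc1, were highest in the second wild-type library. Lamb1 was at 4.14 and 13.8 FPKM (wild-type) against 0.899 and 1.02 FPKM (knockout-labelled), a difference of -2.16 (SE 0.59; limma, adjusted p = 0.080). Lamc1, the gamma chain of most laminins, was at 2.04 and 7.67 FPKM (wild-type) against 2.63 and 2.16 FPKM (knockout-labelled), a difference of -0.60 (SE 0.59; limma, adjusted p = 0.49). Its groups overlapped, and without the second wild-type library the difference was 0.16.

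Lamb3 and Lama3, chains of an epithelial laminin bound by Itga3 and by Itga6 with Itgb4, were highest in the first wild-type library. Lamb3 was at 12.9 and 6.54 FPKM (wild-type) against 3.07 and 2.99 FPKM (knockout-labelled), a difference of -1.35 (SE 0.38; limma, adjusted p = 0.084). Lama3, the alpha chain, was at 0.681 and 0.157 FPKM (wild-type) against 0.218 and 0.354 FPKM (knockout-labelled) and was not tested. Its ratio to Lamb3 lay between 0.0241 and 0.118 in the 4 libraries, so the alpha chain message was scarce in each of them. Lama1, Lama2 and Lamc3 stayed below 1 FPKM in all libraries and were listed at 0 in 1, 1 and 3 of them.

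Lama4 held the largest share of the summed laminin alpha chain FPKM in all 4 libraries, from 61.3 to 82.8%. Among beta chains Lamb3 ranked first in all but the second wild-type library, where Lamb1 held 49.7%. The summed laminin level was 35.3 and 50.6 FPKM in wild-type and 8.53 and 9.06 FPKM in the knockout-labelled libraries. The luminal marker sum and the basal marker sum (337 and 112 FPKM in wild-type, 61.3 and 66.4 FPKM in the knockout-labelled libraries) were lower in the same libraries, as was the endothelial sum; their part in the laminin differences was not tested.

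**Figure D5:**
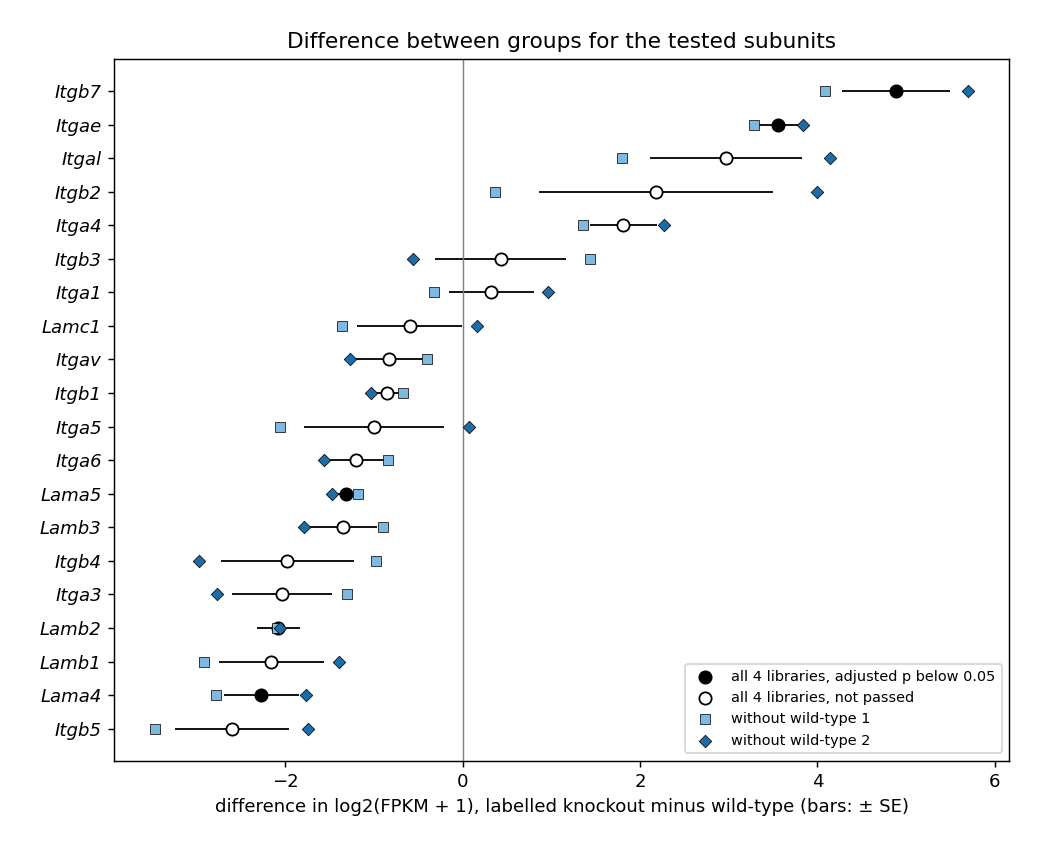
Difference in log2(FPKM + 1), labelled knockout minus wild-type, for the 20 tested subunits, with its SE as a bar (n = 2 and 2); filled circles passed an adjusted p of 0.05, open circles did not, and squares and diamonds give the difference without the first and without the second wild-type library. Subunits whose groups do not overlap, the 2 that rose and the 3 that fell among them, cannot cross 0 when a wild-type library is left out. Itga1, Itga5, Itgb3 and Lamc1, whose groups overlap, cross it.

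Genes that work with these receptors were read from 5 lists. Of 5 tested genes of hemidesmosomes and laminin receptors outside the integrins, 3 fell, none rose and 2 did not pass, with a median difference of -1.43 (-2.24 with a pseudocount of 0.1). Of all tested rows 6.99% fell and 32.1% had groups apart in this direction. Cd151, the tetraspanin that associates with Itga3 and Itga6, fell from 19.1 and 21.5 FPKM to 3.25 and 2.26 FPKM (difference -2.51, SE 0.25; limma, adjusted p = 0.024). Bcam, a receptor for Lama5, went from 11.6 and 11.8 FPKM to 2.69 and 2.13 FPKM (-1.90, SE 0.22) and fell, as did the hemidesmosome linker gene Dst (-1.43, SE 0.21, or -2.57 with a pseudocount of 0.1). Dst, at 0.449 and 0.304 FPKM in the knockout-labelled libraries, met the filter only through the wild-type pair, so it could only come out lower. The wild-type libraries lay close to each other in Cd151 and Bcam, as in Lamb2.

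Of 10 tested basement membrane genes other than laminins 2 fell (6.99% of all tested rows did) and 8 did not pass, with all 10 lower and a median difference of -1.64, against 0.08 over all tested rows. Agrn, the heparan sulfate proteoglycan agrin, went from 4.99 and 4.75 FPKM to 0.780 and 1.13 FPKM and Col18a1, the endostatin precursor, from 11.5 and 26.6 FPKM to 2.65 and 2.28 FPKM. Col4a1, a chain of the main basement membrane collagen, was at 24 and 135 FPKM against 6.21 and 7.49 FPKM (limma, adjusted p = 0.10). The list summed to 1019 FPKM in the second wild-type library, against 244 FPKM in the first. The macrophage, endothelial and fibroblast marker sums were higher there too, and their part was not tested. Leaving out the first wild-type library gave a median of -2.54, and a filter of 5 FPKM gave -2.57.

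Of 12 tested adaptor and focal adhesion genes 1 fell, a share near the 6.99% of all tested rows that fell, and 11 did not pass, with a median difference of -0.74 (-0.48 with a filter of 5 FPKM). Bcar1, the scaffold p130Cas, fell from 25.0 and 10.8 FPKM to 1.92 and 2.5 FPKM (-2.45, SE 0.47; limma, adjusted p = 0.046), and it did not pass after rescaling to a common total (limma, adjusted p = 0.055). Fermt2, kindlin-2, which binds beta chain tails outside blood cells, was at 69.0 and 24.1 FPKM against 4.33 and 5.60 FPKM (limma, adjusted p = 0.051), and the actin linker Parva at 11 and 5.16 against 1.42 and 1.13 FPKM (limma, adjusted p = 0.054).

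Of 10 tested genes that regulate the activation of leukocyte integrins, up or down, 4 rose (9.51% of all tested rows did) and 6 did not pass. All 10 were higher, with a median difference of 2.48 (1.62 without the first wild-type library, 3.98 without the second). Skap1, an adaptor of T cell adhesion, went from 0.891 and 2.79 FPKM to 81.7 and 73.8 FPKM (4.88, SE 0.41; limma, adjusted p = 0.024). Rasgrp2, the Rap1 exchange factor that switches on Itgal with Itgb2, went from 0.323 and 2.73 FPKM to 30.4 and 29.1 FPKM. Cytip and the kinase gene Stk4 also rose, by 3.14 (SE 0.61) and 2.44 (SE 0.21). With a pseudocount of 0.1 Rasgrp2 and Cytip did not pass (limma, adjusted p = 0.06 and 0.056). Of 6 tested ligands of leukocyte integrins 4 were lower and 2 higher, with a median difference of -2.05. Of the 6, 2 fell (6.99% of all tested rows did) and 4 did not pass. The junctional adhesion molecules F11r (93.7 and 45.4 FPKM against 9.61 and 9.02 FPKM) and Jam2 (2.91 and 4.97 against 0.290 and 0.739 FPKM) fell. Jam2 met the filter only through the wild-type pair, so it could only come out lower. With a pseudocount of 0.1 the Jam2 difference went from -1.69 to -2.77 and no longer passed (limma, adjusted p = 0.058). Vcam1, the endothelial and stromal ligand of Itga4, was at 12.7 and 77.1 FPKM (wild-type) against 3.98 and 3.51 FPKM (knockout-labelled) and did not pass (limma, adjusted p = 0.11). These genes were higher or lower in the same libraries as the lymphocyte or the luminal and endothelial marker sums, whose part was not tested.

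The 5 subunit calls needed both knockout-labelled libraries. Without either knockout-labelled library 0 of the 20 tested subunits passed (6 at an unadjusted p under 0.05 in each case; limma), and 0 of all rows did (1385 and 1346 at an unadjusted p under 0.05). When the first and when the second wild-type library was left out, 18 subunits passed in each case, the 5 called among them, but so did 7719 and 7912 of all 11138 rows, so these counts say little about the subunits. With no filter on low values, which put all 35 subunits in the fit, 0 of the 35 passed. In that fit 15 of the 35 had an unadjusted p under 0.05 (limma), as did 5063 of all rows. A fit with 1 library left in a group takes its spread from the other pair alone.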

How the data were processed

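RNA-seq libraries were made from sorted cells with a low-input mRNA kit, per the labels' protocols. The deposited values, 1 per symbol and library, were taken to be FPKM from their range and totals, since the header names no unit. The build is mm9, per the submitters' processing notes; the aligner, quantifier and annotation have no mention in the sources read.

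Of 24043 rows, 92 spike-ins, all at 0, were left out. The 11138 rows that reached 1 FPKM in 2 or more libraries were fitted by limma (3.58.1, R 4.3.3) on log2(FPKM + 1), which understates changes of low genes, with a trended, robust prior and genotype as the sole term; p-values were adjusted over all rows (Benjamini-Hochberg, 0.05). The fit was tested on simulated data. Groups came from the titles. No label says that libraries came from separate animals, and the p-values then reflect only library-to-library spread, which may be technical. Relative depth came from whole-number ratios (up to 6, within 0.2%) between values under 0.1 FPKM, found in 49.6 to 60.4% of pairs and in at most 1.41% off scale.

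The naming rule finds 36 subunits; 1 is not reported here and is left out of all member counts, sums and medians. Members and lists were chosen with earlier results of these data known. Members at 5 FPKM or more in a library were named with all values, lower ones after their values were seen, and of each pathway list those past the threshold plus the 3 lowest p among genes averaging 1 FPKM or more. Promoters were matched by symbol to RefSeq (GRCm38.p6, not the build of the table); 23 of 25 member entries continue into a GENCODE M21 transcript of the gene.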

Additional observations from a re-analysis of the deposited data

How the results depend on the processing

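The 12 alternative settings changed no direction among the 20 tested subunits (12 with a filter of 5 FPKM), except where a wild-type library was left out: Itga1 ranged from -0.32 (without the first) to 0.96, and Itga5 from -2.06 to 0.07, Itgb3 from -0.56 to 1.43 and Lamc1 from -1.36 to 0.16 (each crossing 0 without the second). With a pseudocount of 0.1, median centring, quantile normalization, rescaling to a common total or an untrended, non-robust prior the 5 called subunits stayed past the threshold; rescaling and quantile normalization added Itga4. With a filter of 5 FPKM the 4 called subunits still tested passed. Over all rows 1837 passed. With no filter on low values 2 rows passed in all, with 0 of the 35 subunits and 0 in each of the 5 pathway lists. In that fit 15 of the 35 subunits and 5063 of all rows had an unadjusted p under 0.05 (limma). The replicate numbers are not said to pair libraries, and deviations of same-numbered libraries correlated at -0.06. With the number as a replicate block 501 rows passed, 2 of them subunits (Itgae and Itgb7, while the 3 laminins did not pass), 1 hemidesmosome gene, 0 basement membrane, 0 adaptor genes and 1 ligand.

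Leaving out 1 library each, the count ranged from 0 to 7912 over all rows, from 0 to 18 for subunits, 0 to 5 for hemidesmosome genes, 0 to 10 for basement membrane genes, 0 to 9 for adaptor genes, 0 to 10 for leukocyte activation genes and 0 to 6 for ligands, with 0 whenever a knockout-labelled library was left out. A filter of 5 FPKM gave 1 basement membrane gene, 3 adaptor genes and 1 ligand; a pseudocount of 0.1 gave 2 activation genes and 1 ligand; rescaling to a common total gave 0 adaptor genes and quantile normalization gave 2. The cause of these changes was not tested, apart from the fewer rows tested under the stricter filter. Depth limits the members near 0, where a value may be a single read.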
